A study of Saccharomyces cerevisiae with 36 samples.

Results

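Messenger RNA and ribosome footprints of 8 budding yeast genes that answer to oxygen and heme were followed through iron chelation. The genes are ROX1 (YPR065W), ANB1 (YJR047C), CYC7 (YEL039C), TIR1 (YER011W), DAN1 (YJR150C) and the 3 ADP/ATP carriers AAC1 (YMR056C), AAC3 (YBR085W) and PET9 (YBL030C). They were chosen by name from the 7127 features of the deposited tables, to ask whether loss of iron mimics loss of oxygen and heme. All 8 passed the filter on low counts in both assays, some of them only through libraries with BPS.

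The samples came from Saccharomyces cerevisiae of the W303a background. The cth1Δcth2Δ strain, called the mutant here, lacks 2 genes for RNA-binding proteins and carries no other labelled change. The wild type is the W303a strain itself. Both strains grew in synthetic complete medium at 30°C. Cells were taken without treatment (0 h) or after 3 h or 6 h with 100 µM BPS (bathophenanthroline disulfonate), which binds ferrous iron. RNA-seq counted fragments of the poly(A) RNA of each lysate, and Ribo-seq counted fragments protected by single ribosomes (footprints). Each of the 12 combinations of assay, strain and time had 3 biological replicates, which makes 36 libraries. The labels do not say how many clones of the mutant were used.

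Heme synthesis in yeast uses oxygen in its late steps and ends with the insertion of ferrous iron, so heme falls both without oxygen and without iron. With heme present, the activator Hap1 drives aerobic genes and the repressor gene ROX1, and Rox1 together with the Tup1-Cyc8 corepressor keeps hypoxic genes silent. Several of the genes form pairs in which a hypoxic copy replaces an aerobic one: ANB1 and HYP2 for translation factor eIF5A, CYC7 and CYC1 for cytochrome c, COX5B and COX5A for a cytochrome c oxidase subunit, and AAC3 beside PET9, the main aerobic carrier that exchanges ADP and ATP across the inner mitochondrial membrane. TIR1 and DAN1 encode cell wall mannoproteins made in cells without oxygen.

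The 8 genes differ in the published binding motifs before their start codons. In the 500 bases before the start of 6000 genes of the R64 genome, the Rox1 motif ATTGTTC was found on either strand in 11.8%, the anaerobic response element TCGTTNAG in 5.12%, the Upc2 sterol response element TCGTATA in 7% and the Hap1 motif in 0.35%, where N is any base. ANB1 was the only one of the 8 with the Rox1 motif, and held it 3 times on the coding strand. DAN1 held the anaerobic response element 2 times and the Upc2 element once, CYC7 held the Upc2 element once, and the motifs did not overlap. None of the 4 motifs was in these windows of ROX1, TIR1, AAC1, AAC3 or PET9. Only these exact strings were searched, and not in the genome of the W303a strain itself, so absence does not show that a site is lacking. The stretches that hold the matches are shown because the values of these 3 genes are described below beside the motifs they hold. They are from the R64 assembly, on the reverse strand, written 5′ to 3′ towards the start codon with the motifs in capitals. The ANB1 stretch is chrX:525569-525713, the CYC7 stretch chrV:80429-80475 and the DAN1 stretch chrX:709860-710139.
ANB1: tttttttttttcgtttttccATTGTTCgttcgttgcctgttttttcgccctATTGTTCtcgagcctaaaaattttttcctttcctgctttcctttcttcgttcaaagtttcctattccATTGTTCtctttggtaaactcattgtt
CYC7: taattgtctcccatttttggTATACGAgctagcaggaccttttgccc
DAN1: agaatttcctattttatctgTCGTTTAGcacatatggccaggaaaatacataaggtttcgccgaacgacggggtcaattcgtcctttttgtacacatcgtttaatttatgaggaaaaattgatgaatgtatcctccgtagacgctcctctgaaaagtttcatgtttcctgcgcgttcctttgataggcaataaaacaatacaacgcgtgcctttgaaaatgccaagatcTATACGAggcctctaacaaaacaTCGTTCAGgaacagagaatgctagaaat
TATACGA is TCGTATA read on the other strand. A match is a description of these letters, and binding was not measured.

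Total counts ran over 113262 to 6571727 per RNA-seq library and 607936 to 28491058 per Ribo-seq library. Levels are counts scaled by library size with TMM factors (CPM). A count of 3 was worth 0.462 to 22.2 CPM in an RNA-seq library and 0.111 to 4.31 CPM in a Ribo-seq library, and such floors cover counting error only. Replicate 1 of the wild type at 6 h had the fewest RNA-seq counts. The deleted gene CTH1 was at 0 to 3.68 CPM in the 9 mutant RNA-seq libraries and at 17.9 to 63.4 CPM in the 9 wild-type ones. CTH2, listed as TIS11, was at 0 to 11.1 CPM in mutant RNA, against 150 to 387 CPM in wild-type RNA with BPS. Replicate 2 at 3 h stood apart for ANB1 and PET9 in both strains and both assays. Its ANB1 level was 11.6 times the mean of replicates 1 and 3 in mutant RNA, 26.4 times in wild-type RNA, 12.1 times in mutant footprints and 24.2 times in wild-type footprints. Its PET9 level was 0.517 times that mean in mutant RNA, 0.159 times in wild-type RNA, 0.580 times in mutant footprints and 0.25 times in wild-type footprints. Calls at 3 h are therefore given with and without these libraries. They were singled out by these ANB1 and PET9 levels, so a call gained without them, for any gene or time, is no support for a change. Over all footprint features, replicate 2 of the mutant had r = 0.966 with the rest of its group, beside 0.972 and 0.966 for replicates 1 and 3. In the other groups at 3 h, replicate 2 was the least like the rest over all features. Its r was 0.93 in wild-type footprints, beside 0.978 and 0.967. In RNA it was 0.91 in the mutant, beside 0.942 and 0.952, and 0.911 in the wild type, beside 0.963 and 0.958. The deviation was therefore not confined to ANB1 and PET9.

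Across the 8 genes, the response at 6 h was a rise of some hypoxic genes and of AAC1, with no called fall. In RNA, 3 of 8 genes were called in the mutant at 6 h (CYC7, AAC1 and DAN1), all higher, where 38.7% of the 6006 features tested were called in either direction and 17.8% higher. In wild-type RNA at 6 h, 4 of 8 were called (CYC7, AAC1, TIR1 and DAN1), all higher, beside 35.9% of all features in either direction and 19.2% higher. In mutant footprints at 6 h, 2 of 8 were called (CYC7 and AAC1), both higher, beside 50.7% of the 5315 features tested and 26.2% higher. In wild-type footprints at 6 h, 3 of 8 were called (ROX1, CYC7 and DAN1), all higher, beside 52.9% and 28.5% higher. A share of called genes near these backgrounds is not a result about the 8 genes as a list. Some genes low at 0 h passed the filter through libraries with BPS in which they were high. Among them were DAN1 RNA (at most 2.31 CPM at 0 h), TIR1 RNA (at most 6.15 CPM) and DAN1 footprints (at most 0.775 CPM). ANB1 RNA (at most 9.63 CPM at 0 h), CYC7 RNA (at most 17.5 CPM) and AAC1 footprints (at most 2.6 CPM) also needed such libraries to pass. Their calls are therefore no support for a rise of the list, and the RNA medians below include them. A call means an adjusted p under 0.05 in edgeR's quasi-likelihood test. The median log2 fold change of the 8 genes at 6 h was 1.48 in mutant RNA and 2.41 in wild-type RNA, against 0.01 and 0.03 over all features.

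**Figure D1:**
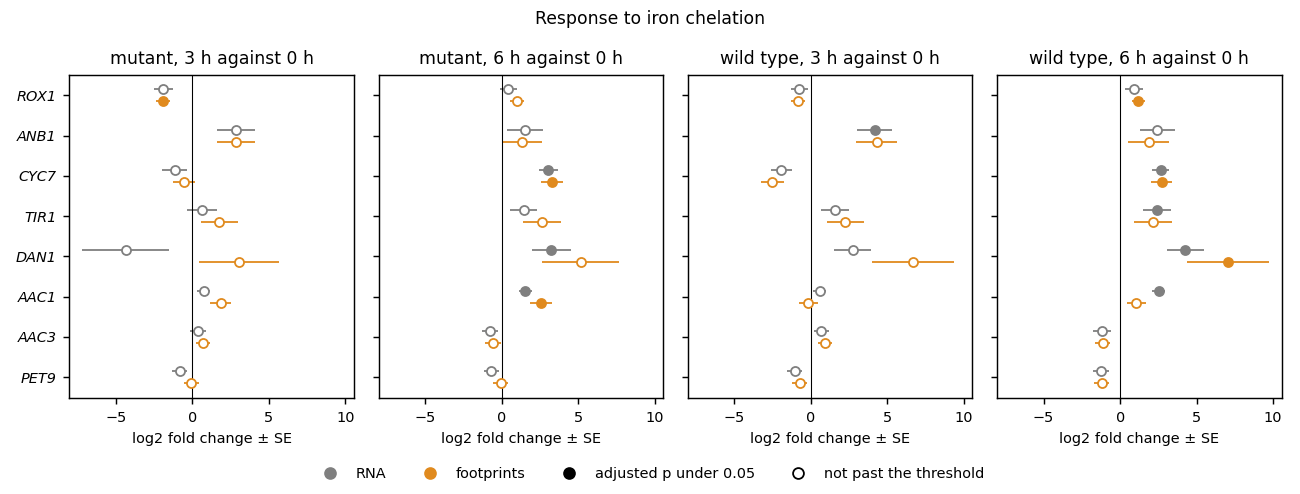
Log2 fold changes with standard errors for RNA (grey) and footprints (orange) of the 8 genes at 3 h and 6 h against 0 h, mutant panels left of wild-type panels. Filled points are past an adjusted p of 0.05. CYC7 is filled in all 4 sets of values at 6 h, and AAC3 and PET9 are filled in none.

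At 3 h few calls were made. In RNA, 0 of 8 were called in the mutant, beside 3.15% of all features, and 1 of 8 in the wild type (ANB1, higher), beside 4.15% in either direction and 2.66% higher. In footprints, 1 of 8 was called in the mutant (ROX1, lower), beside 3.69% in either direction and 0.828% lower, and 0 of 8 in the wild type, beside 5.48%. The 3 h and 6 h comparisons of a strain share their 0 h libraries.

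ROX1, the gene of the heme-dependent repressor itself, had fewer footprints at 3 h and more at 6 h than at 0 h. Mutant footprints of ROX1 were 204, 151 and 217 CPM at 0 h, 47.4, 37.8 and 65.8 CPM at 3 h and 250, 689 and 223 CPM at 6 h. Wild-type footprints of ROX1 were 130, 153 and 119 CPM at 0 h, 112, 30.6 and 77.0 CPM at 3 h and 207, 353 and 356 CPM at 6 h. In both strains the 3 h libraries lay below all 0 h libraries and the 6 h libraries above them. The fall at 3 h was called in the mutant (-1.92 on the log2 scale, SE 0.46, adjusted p = 0.0270) and not in the wild type (-0.86, SE 0.45, adjusted p = 0.331). The rise at 6 h was called in the wild type (1.19, SE 0.45, adjusted p = 0.0345) and not in the mutant (1.02, SE 0.45, adjusted p = 0.0659). The difference between the strains in these footprint responses was not called at 3 h (-1.06, SE 0.63, adjusted p = 1.00) or at 6 h (-0.17, SE 0.63, adjusted p = 0.956). The fall of ROX1 in the mutant lost its call (adjusted p = 0.0606 to 0.124) when any one library other than 3 h replicate 3 was left out. Without replicate 2 at 3 h of both strains it was -1.76 with an adjusted p of 0.0485. The rise in the wild type lost its call (0.0653 to 0.114) when any one other than 6 h replicate 1 was left out. The mutant difference at 6 h was called in 6 alternatives (adjusted p = 0.0312 to 0.0484), among them DESeq2 and the fit without replicate 2 at 3 h of both strains.

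In RNA, ROX1 had 40.8, 36.9 and 74.0 CPM at 0 h, 18.4, 3.70 and 16.1 CPM at 3 h and 36.1, 146 and 45.8 CPM at 6 h in the mutant. The wild type had 40.1, 57.8 and 29.1 CPM of ROX1 RNA at 0 h, 41.8, 7.16 and 17.2 CPM at 3 h and 66.7, 123 and 41.1 CPM at 6 h. All 3 mutant libraries at 3 h were below those at 0 h, while the wild-type groups overlapped. No ROX1 RNA change passed the threshold (3 h in the mutant: -1.89, SE 0.63, adjusted p = 0.0985). The mutant value at 3 h passed it with DESeq2 (-1.97, adjusted p = 0.0447) and in the fit of only the groups compared (-1.85, adjusted p = 0.0319). These are bulk cultures, in which a change in every cell and a change in a share of the cells cannot be told apart.

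ANB1, the hypoxic copy of eIF5A and a classical target of Rox1, is the gene with the 3 Rox1 motifs printed above. Its RNA was at 3.31, 6.15 and 7.25 CPM at 0 h, 14.7, 140 and 9.49 CPM at 3 h and 8.91, 28.3 and 16.9 CPM at 6 h in the mutant. In the wild type ANB1 RNA was at 6.38, 9.63 and 4.63 CPM at 0 h, 15.6, 309 and 7.80 CPM at 3 h and 7.41, 21.7 and 44.2 CPM at 6 h. A single 3 h library of each strain, replicate 2, held by far the most ANB1 RNA, and the other 3 h libraries held 7.80 to 15.6 CPM. The wild-type rise at 3 h was called (log2 fold change 4.16, SE 1.13, adjusted p = 0.0350). Without replicate 2 at 3 h of both strains, an alternative chosen after seeing the data, it was 0.96 with an adjusted p of 0.715. Leaving out any single 0 h library also ended this ANB1 call (adjusted p = 0.156, 0.0789 and 0.173 without replicates 1, 2 and 3). ANB1 RNA passed the filter through libraries with BPS, so that call is no support for a rise of the list.

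Footprints of ANB1 told the same samples apart. They were 4.27, 11.8 and 3.73 CPM at 0 h, 6.51, 102 and 10.3 CPM at 3 h and 5.47, 22.7 and 15.8 CPM at 6 h in the mutant. Wild-type ANB1 footprints were 4.65, 5.23 and 3.17 CPM at 0 h, 12.3, 216 and 5.49 CPM at 3 h and 7.44, 16.4 and 17.9 CPM at 6 h. The wild-type 3 h difference was not called (4.29, SE 1.35, adjusted p = 0.0779), and it was with the replicate block (3.07, adjusted p = 0.0369), in a comparison where same-numbered replicates deviated together. DESeq2 called it too (4.08, adjusted p = 0.0101). At 6 h every wild-type library lay above every 0 h library, in a narrower range than at 3 h. The wild-type 6 h difference was not called in footprints (1.86, SE 1.32, adjusted p = 0.245) or in RNA (2.43, SE 1.14, adjusted p = 0.10). The fit of only the groups compared called both wild-type values, in RNA (2.35, adjusted p = 0.00175) and in footprints (1.85, adjusted p = 0.00993). Without replicate 2 at 3 h of both strains, which enters the estimate of the spread, ANB1 was called at 6 h in mutant RNA (1.61, adjusted p = 0.0318), in wild-type RNA (2.41, adjusted p = 0.00196) and in wild-type footprints (1.87, adjusted p = 0.0186). The libraries left out were singled out by their ANB1 levels, so these gained calls are no support for a rise.

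**Figure D2:**
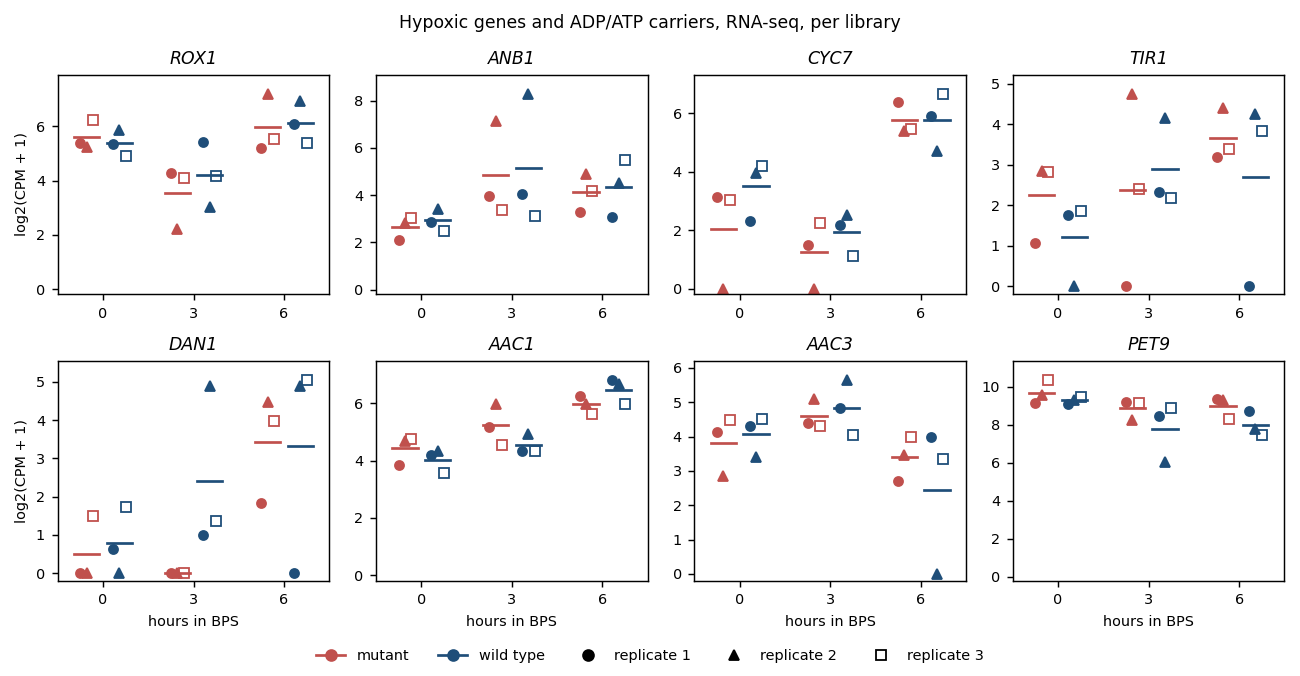
RNA-seq level of each gene per library as log2(CPM + 1) against hours in BPS, mutant in red left of wild type in blue, with a bar at the mean of 3 replicates. Replicate 2 at 3 h is the highest ANB1 point of both strains, and CYC7 and AAC1 are highest at 6 h.

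CYC7, the hypoxic form of cytochrome c, was called higher at 6 h in both strains and both assays. Its RNA passed the filter through the 6 h libraries, in which it was high, so its RNA calls are no support for a rise of the list. In mutant RNA CYC7 was at 7.71, 0 and 7.25 CPM at 0 h, 1.84, 0 and 3.74 CPM at 3 h and 82.3, 41.5 and 43.5 CPM at 6 h. In wild-type RNA CYC7 was at 4.01, 14.4 and 17.5 CPM at 0 h, 3.53, 4.77 and 1.17 CPM at 3 h and 59.3, 25.3 and 100 CPM at 6 h. All 6 h libraries of a strain were above all 0 h and 3 h libraries of that strain. The rise at 6 h was 8.21-fold in the mutant (log2 3.04, SE 0.61, adjusted p = 0.000528) and 6.22-fold in the wild type (log2 2.64, SE 0.58, adjusted p = 0.00112). Without wild type 6 h replicate 3, the wild-type change in CYC7 RNA was 1.87 with an adjusted p of 0.0704.

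CYC7 footprints moved with its RNA. They were 4.65, 10.2 and 6.07 CPM at 0 h, 8.99, 1.46 and 4.04 CPM at 3 h and 84.8, 66.0 and 37.3 CPM at 6 h in the mutant. The wild type had 5.43, 8.72 and 14.1 CPM of CYC7 footprints at 0 h, 1.29, 3.19 and 1.41 CPM at 3 h and 36.8, 22.3 and 145 CPM at 6 h. The 6 h rise was 9.81-fold in the mutant (log2 3.29, SE 0.72, adjusted p = 0.00128) and 6.62-fold in the wild type (log2 2.73, SE 0.68, adjusted p = 0.00339). At 3 h the 3 wild-type libraries lay below all 0 h libraries, at a log2 fold change of -2.53 that missed the threshold (SE 0.76, adjusted p = 0.0635). DESeq2 called that value (-2.43, adjusted p = 0.0121), as did the fit of only the groups compared (-2.51, adjusted p = 0.0368). As for ROX1, the wild-type footprints of the 3 times did not overlap.

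TIR1, a cell wall mannoprotein of the TIP1 family, was scarce throughout. Mutant RNA of TIR1 was at 1.1, 6.15 and 6.04 CPM at 0 h, 0, 25.9 and 4.31 CPM at 3 h and 8.06, 20.2 and 9.38 CPM at 6 h. Wild-type RNA of TIR1 was at 2.37, 0 and 2.64 CPM at 0 h, 4.03, 16.7 and 3.51 CPM at 3 h and 0, 18.1 and 13.2 CPM at 6 h. The wild-type groups overlapped at 6 h because replicate 1, in which 3 counts are worth 22.2 CPM, held no TIR1 count. The wild-type 6 h rise was called (log2 2.38, SE 0.91, adjusted p = 0.0444) and the mutant change was not (1.43, SE 0.86, adjusted p = 0.197). Leaving out any one library other than wild type 6 h replicate 1 ended the TIR1 call (adjusted p = 0.0648 to 0.234). TIR1 footprints at 6 h were 4.54, 60.4 and 2.87 CPM in the mutant, against 2.33, 5.08 and 4.42 CPM at 0 h. In the wild type they were 7.44, 27.9 and 12.9 CPM at 6 h, against 3.10, 0 and 5.32 CPM at 0 h. Neither footprint difference was called (mutant 2.64, SE 1.24, adjusted p = 0.0849, and wild type 2.15, SE 1.22, adjusted p = 0.148). The mutant one was called without replicate 2 at 3 h of both strains (2.62, adjusted p = 0.0287), and the wild-type one in the fit of only the groups compared (2.16, adjusted p = 0.0283). Of the 28-base words of TIR1, 18.3% occur elsewhere in the genome, so its counts depend on how reads with several matches were treated, which is not given in the sources used here.

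DAN1, whose upstream stretch holds 2 anaerobic response elements and an Upc2 element, was nearly silent at 0 h. Mutant RNA of DAN1 was at 0, 0 and 1.81 CPM at 0 h, at 0 CPM in all 3 libraries at 3 h, where 3 counts are worth 5.52, 11.1 and 0.863 CPM, and at 2.55, 21.2 and 14.6 CPM at 6 h. Wild-type RNA of DAN1 was at 0.547, 0 and 2.31 CPM at 0 h, 1.01, 28.6 and 1.56 CPM at 3 h and 0, 28.9 and 32.0 CPM at 6 h. Every mutant library at 6 h was above every one at 0 h, and in the wild type only the shallow replicate 1 at 6 h overlapped the 0 h range. The 6 h rise was called in the mutant (log2 3.25, SE 1.27, adjusted p = 0.0485) and in the wild type (4.27, SE 1.19, adjusted p = 0.00775). The mutant DAN1 call was lost with DESeq2 (3.61, adjusted p = 0.0913) and without any one library other than mutant 6 h replicate 1 (adjusted p = 0.0696 to 0.132). The wild-type DAN1 call was lost without 0 h replicate 1 (3.56, adjusted p = 0.0689) and without 6 h replicate 3 (3.78, adjusted p = 0.0859).

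Footprints of DAN1 were 0.775, 0 and 0.173 CPM at 0 h, 0, 6.34 and 0.202 CPM at 3 h and 0.931, 15.6 and 20.1 CPM at 6 h in the mutant. The wild type had 0.775, 0 and 0.107 CPM at 0 h, 0.148, 55.3 and 0.314 CPM at 3 h and 1.75, 13.6 and 51.2 CPM at 6 h. At 3 h almost all DAN1 footprints came from replicate 2, and at 6 h from replicates 2 and 3. The wild-type 0 h libraries held 3 DAN1 footprints in all. Set against these, the summed rate at 6 h was 167 times higher, with a 95% counting interval of 56.7 to 813. The wild-type rise at 6 h was called (log2 7.06, SE 2.66, adjusted p = 0.0345) and the mutant difference was not (5.15, SE 2.53, adjusted p = 0.0993). The DAN1 footprint call in the wild type was lost without 0 h replicates 1, 2 or 3 (adjusted p = 0.0616, 0.0702 and 0.177) and without 6 h replicate 3 (5.63, adjusted p = 0.110). In the mutant, DAN1 was called with DESeq2 (5.19, adjusted p = 0.0263) and without replicate 2 at 3 h of both strains (5.14, adjusted p = 0.00986).

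**Figure D3:**
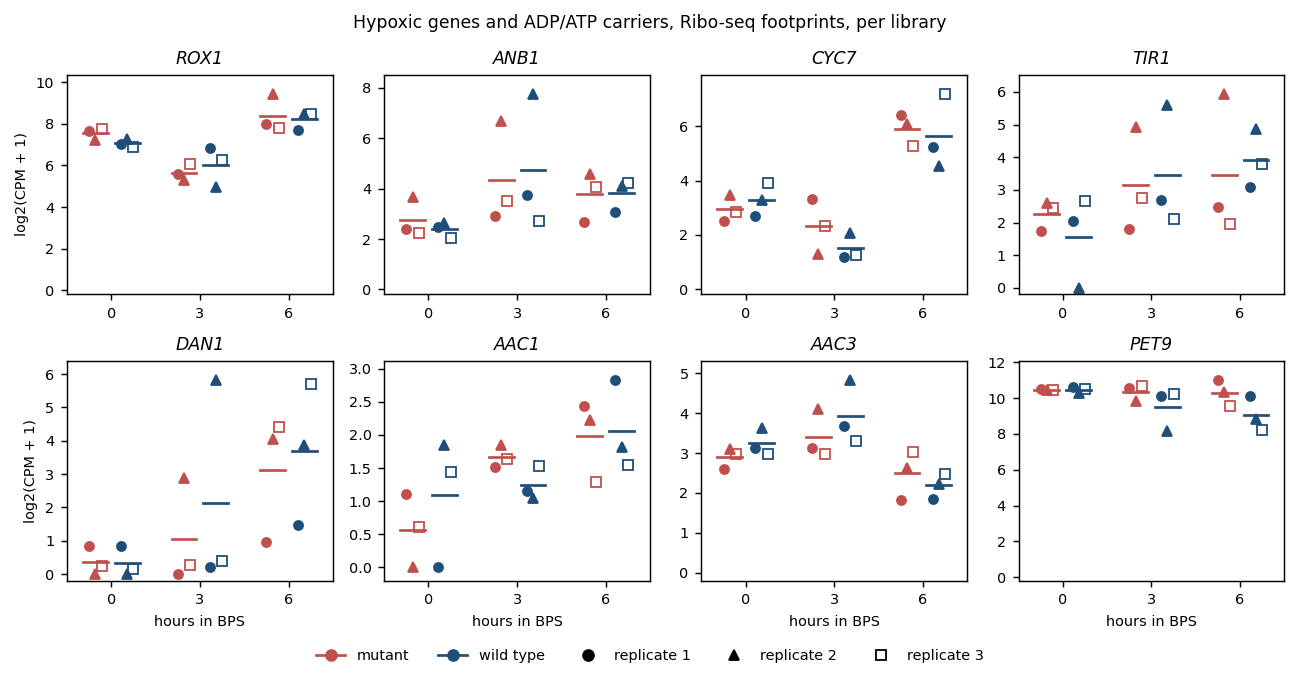
Ribo-seq level of each gene per library as log2(CPM + 1) against hours in BPS, mutant in red left of wild type in blue, with a bar at the mean of 3 replicates. ROX1 is lowest at 3 h in both strains, CYC7 is highest at 6 h, and the DAN1 points at 0 h lie near 0.

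The 3 ADP/ATP carriers did not move together. AAC1, a minor aerobic carrier, was the one that rose. Its RNA was at 13.2, 24.6 and 26.3 CPM at 0 h, 35.0, 62.8 and 22.1 CPM at 3 h and 76.4, 62.8 and 48.4 CPM at 6 h in the mutant. In the wild type AAC1 RNA was at 17.3, 19.3 and 10.9 CPM at 0 h, 19.2, 29.8 and 19.1 CPM at 3 h and 111, 101 and 61.8 CPM at 6 h. All 6 h libraries were above all 0 h libraries in both strains. The rise of AAC1 was 2.93-fold in the mutant (log2 1.55, SE 0.40, adjusted p = 0.00398) and 5.76-fold in the wild type (log2 2.53, SE 0.42, adjusted p = 7.79e-05). The difference between these responses was not called (mutant minus wild type -0.98, SE 0.57, adjusted p = 0.735).

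Few ribosome footprints lay on AAC1. They were 1.16, 0 and 0.520 CPM at 0 h, 1.86, 2.60 and 2.12 CPM at 3 h and 4.42, 3.67 and 1.44 CPM at 6 h in the mutant, the last from 1 count. The wild type had 0, 2.61 and 1.72 CPM of AAC1 footprints at 0 h, 1.22, 1.06 and 1.88 CPM at 3 h and 6.12, 2.51 and 1.90 CPM at 6 h. The 6 h rise was called in the mutant (log2 2.55, SE 0.71, adjusted p = 0.00712), a call lost without mutant 0 h replicate 3 (2.23, adjusted p = 0.0653). AAC1 footprints passed the filter through libraries with BPS, so this call is no support for a rise of the list. The wild-type change in AAC1 footprints was not called (1.05, SE 0.63, adjusted p = 0.172). AAC1 lies 577 bases from FET3, the multicopper ferroxidase of iron uptake, on the other strand with the starts facing apart. FET3, named after its values were seen, rose at 6 h as well, with a log2 fold change in RNA of 1.79 in the mutant (SE 0.39, adjusted p = 0.000957) and 3.67 in the wild type (SE 0.42, adjusted p = 1.05e-06). The part of this neighbour in the AAC1 values was not tested.

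AAC3, the hypoxic carrier, was not called in any comparison of the edgeR fits without a block over all libraries of an assay. Its RNA was at 16.5, 6.15 and 21.2 CPM at 0 h, 20.2, 33.2 and 18.7 CPM at 3 h and 5.51, 10.1 and 15.0 CPM at 6 h in the mutant. Wild-type AAC3 RNA was at 18.6, 9.63 and 21.8 CPM at 0 h, 27.2, 48.9 and 15.6 CPM at 3 h and 14.8, 0 and 9.09 CPM at 6 h. The 3 h and the 6 h groups each overlapped the 0 h group, with the highest value of each strain in replicate 2 at 3 h. In both strains all 6 h libraries lay below all 3 h libraries. The log2 fold change at 6 h was -0.75 in the mutant (SE 0.53, adjusted p = 0.272) and -1.20 in the wild type (SE 0.59, adjusted p = 0.120). Wild-type AAC3 footprints of 2.62, 3.70 and 4.57 CPM at 6 h lay below all 0 h values of 7.75, 11.3 and 6.82 CPM, a difference that missed the threshold (-1.14, SE 0.50, adjusted p = 0.0646). DESeq2, the fit of only the groups compared and the fit without replicate 2 at 3 h of both strains put AAC3 past it (adjusted p = 0.0497, 0.0486 and 0.0221), also as lower. The edgeR fit with the replicate block did so too (-1.19, adjusted p = 0.0170), in a comparison whose replicate numbers did not pair the samples.

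PET9, the main aerobic carrier, held most of the carrier reads. Mutant RNA of PET9 was at 564, 756 and 1296 CPM at 0 h, 594, 303 and 578 CPM at 3 h and 663, 646 and 323 CPM at 6 h. Wild-type RNA of PET9 was at 550, 631 and 702 CPM at 0 h, 349, 65.6 and 477 CPM at 3 h and 430, 221 and 177 CPM at 6 h. In the wild type all libraries with BPS lay below all 0 h libraries, while the mutant groups overlapped. The wild-type difference at 6 h missed the threshold (-1.23, SE 0.51, adjusted p = 0.0648), as did the mutant one (-0.69, SE 0.49, adjusted p = 0.282). Without wild type 6 h replicate 1, the wild-type value was -1.63 with an adjusted p of 0.0365. The wild-type value was also called as lower in the fit of only the groups compared (-1.24, adjusted p = 0.00897) and without replicate 2 at 3 h of both strains (-1.20, adjusted p = 0.0182).

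PET9 footprints differed between the strains on average at 6 h, by less than the threshold requires. At 6 h they were 2030, 1313 and 748 CPM in the mutant, against 1097, 456 and 299 CPM in the wild type, and these groups overlapped. At 0 h they were 1487, 1390 and 1402 CPM in the mutant and 1581, 1274 and 1438 CPM in the wild type. The log2 fold change at 6 h against 0 h was -0.06 in the mutant (SE 0.50, adjusted p = 0.928) and -1.22 in the wild type (SE 0.50, adjusted p = 0.0519). Mutant against wild type at 6 h gave 1.15 (SE 0.50, adjusted p = 0.227), and the difference between the responses gave 1.15 (SE 0.70, adjusted p = 0.508). Without wild type 6 h replicate 1, PET9 footprints passed the threshold for mutant against wild type at 6 h (1.86, adjusted p = 0.0337) and for the wild-type response (-1.93, adjusted p = 0.00599). The wild-type response of PET9 footprints was also called as lower with DESeq2 (-1.23, adjusted p = 0.0326) and without replicate 2 at 3 h of both strains (-1.20, adjusted p = 0.0206).

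The exchange of an aerobic for a hypoxic paralogue was read as the share of the pair's counts held by the hypoxic gene, which needs no scaling between libraries. For CYC7 with CYC1, that share in RNA was 49.9% ± 11.4 at 6 h and 0.811% ± 0.713 at 0 h in the mutant (SD, n = 3 each). In the wild type it was 64.5% ± 28.3 at 6 h and 1.83% ± 0.967 at 0 h (SD, n = 3 each). The footprint share was 42.9% ± 13.0 at 6 h and 0.859% ± 0.484 at 0 h in the mutant, and 64.7% ± 26.4 at 6 h and 1.48% ± 0.775 at 0 h in the wild type (SD, n = 3 each). In each of these 4 comparisons no 6 h library overlapped a 0 h library, and the two-sided exact permutation test gave p = 0.1, the smallest that 3 against 3 allows. Both partners moved: CYC1, cytochrome c of respiring cells, fell in RNA at 6 h by 3.02 on the log2 scale in the mutant (SE 0.65, adjusted p = 0.000884) and by 4.38 in the wild type (SE 0.75, adjusted p = 9.9e-05). CYC1 and ANB1 lie 953 bases apart with their starts facing apart.

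The COX5B share with COX5A in RNA was 65.5% ± 11.3 at 6 h and 6.14% ± 0.200 at 0 h in the mutant, and 70.2% ± 14.3 at 6 h and 8.41% ± 0.643 at 0 h in the wild type (SD, n = 3 each, exact permutation p = 0.1 in both). COX5B RNA rose by a log2 fold change of 3.71 at 6 h in both strains (SE 0.65 in the mutant and 0.63 in the wild type, adjusted p = 0.000130 and 9.37e-05). Its rise was already called at 3 h, at 2.55 in the mutant (SE 0.65, adjusted p = 0.0296) and 3.28 in the wild type (SE 0.62, adjusted p = 0.00236). Without replicate 2 at 3 h of both strains these COX5B values were 2.05 in the mutant (adjusted p = 0.0305) and 2.00 in the wild type (adjusted p = 0.0194). The mutant call was lost without any one library other than 3 h replicate 3 (adjusted p = 0.0635 to 0.155). COX5A RNA fell by 1.25 at 6 h in the wild type (SE 0.47, adjusted p = 0.0403), a call lost with RLE factors (-1.14, adjusted p = 0.0621), with scaling by total counts (-0.68, adjusted p = 0.251) and without any one library other than 6 h replicate 1 (adjusted p = 0.0602 to 0.186). In footprints at 6 h the COX5B share was 33.3% ± 4.89 in the mutant and 51.5% ± 4.54 in the wild type without overlap (SD, n = 3 each, exact permutation p = 0.1). At 0 h this footprint share was 2.9% ± 1.0 in the mutant and 5.6% ± 2.3 in the wild type (SD, n = 3 each). No other share compared between the strains at 6 h was free of overlap, and the COX5B share in RNA overlapped (exact permutation p = 0.7).

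**Figure D4:**
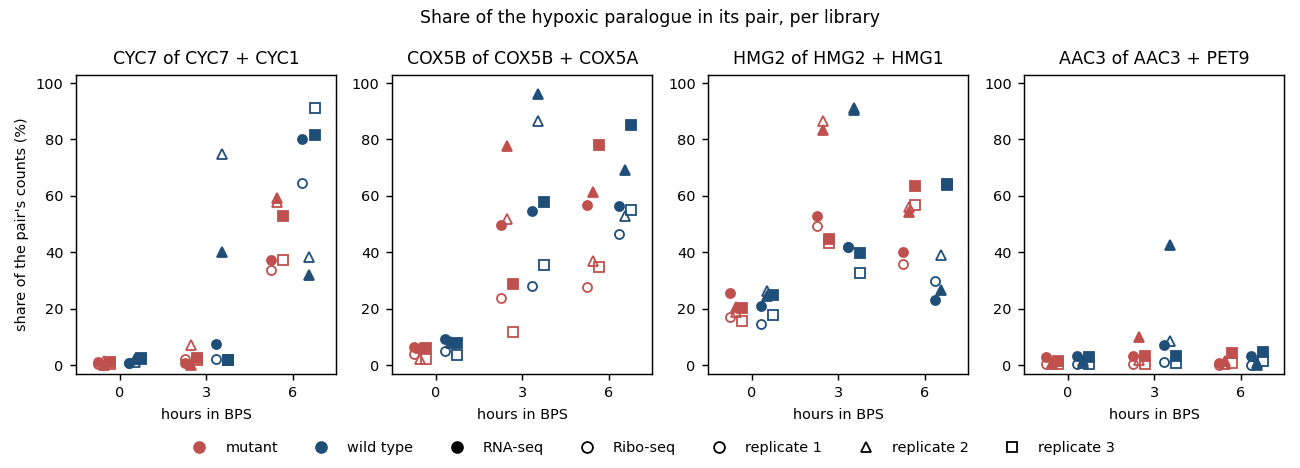
Share of each pair's counts held by the hypoxic gene (%), per library against hours in BPS, mutant in red left of wild type in blue, RNA-seq filled and Ribo-seq open. The CYC7 share is at most 2.49% at 0 h and between 31.8% and 91.1% at 6 h, and the AAC3 share at 6 h is at most 4.88%.

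The carrier pair showed no such exchange beyond the spread between libraries. The AAC3 share of AAC3 and PET9 counts in RNA was 2.27% ± 1.92 at 6 h and 1.75% ± 1.03 at 0 h in the mutant, and 2.74% ± 2.49 at 6 h and 2.60% ± 0.955 at 0 h in the wild type (SD, n = 3 each, exact permutation p = 0.8 in both). It was highest in wild type 3 h replicate 2, at 42.7% in RNA and 8.73% in footprints. The share of HMG2, the hypoxic copy of HMG-CoA reductase, among HMG2 and HMG1 counts in RNA was 52.6% ± 11.8 at 6 h and 22.2% ± 2.89 at 0 h in the mutant (exact permutation p = 0.1), and 37.9% ± 22.6 at 6 h and 23.5% ± 2.25 at 0 h in the wild type (exact permutation p = 0.3; SD, n = 3 each). In mutant footprints the HMG2 share was 49.5% ± 11.9 at 6 h and 17.2% ± 1.64 at 0 h (SD, n = 3 each). In wild-type footprints it was 44.4% ± 17.9 at 6 h and 19.6% ± 6.09 at 0 h (SD, n = 3 each). Neither strain had overlap in footprints (exact permutation p = 0.1 in both). HMG1 RNA fell by 2.03 at 6 h in the mutant (SE 0.55, adjusted p = 0.00589), a call lost with scaling by total counts (-1.32, adjusted p = 0.0540) and without mutant 0 h replicate 3 (-1.47, adjusted p = 0.0516). Over the 24 share comparisons the smallest Benjamini-Hochberg value was 0.2. HYP2, the aerobic partner of ANB1, is listed at 0 in all 36 libraries, so the share of ANB1 could not be formed. This 0 does not show that HYP2 was silent. YEL034C-A, a deposited feature that overlaps HYP2, held up to 589 counts in a library. How reads over overlapping features were counted is not given in the sources used here, and the cause of the 0 was not tested. HYP2 and ANB1 are 90.9% identical over their coding sequences, and 8.72% of the 28-base words of ANB1 occur elsewhere in the genome.

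Further genes of the hypoxic and heme pathways were read from lists. Of the other hypoxic mannoproteins, 5 of 6 were tested in RNA, of which 1 was called higher at 6 h in the mutant, beside 17.8% of all features, and 4 in the wild type, beside 19.2%. TIR3, one of them, was at 14.8, 68.7 and 60.4 CPM at 6 h in wild-type RNA, against 9.85, 4.82 and 9.25 CPM at 0 h, and rose by a log2 fold change of 2.53 (SE 0.65, adjusted p = 0.00392). In footprints 3 of these mannoproteins were tested, and 2 were called higher in each strain, beside 26.2% of all features in the mutant and 28.5% in the wild type. The low levels of TIR2 (0.388 to 1.04 CPM in the mutant and 0.775 to 4.36 CPM in the wild type) and TIR4 (at most 0.846 CPM in the mutant and 0.591 CPM in the wild type) in footprints at 0 h mean that they passed the filter through libraries in which they were high, so their count is no support for a rise of the list. The median log2 fold change of these mannoproteins at 6 h in RNA was 0.98 in the mutant and 2.27 in the wild type, beside 0.01 and 0.03 over all features. DAN2, another of them, was at most 4.83 CPM in RNA at 0 h. It passed the filter through the 6 h libraries, at 7.08 to 14.8 CPM. The RNA counts and medians include it and are no support for a rise of the list either. TIR4 footprints were 2.62, 34.0 and 148 CPM at 6 h in the wild type, against 0, 0 and 0.591 CPM at 0 h (log2 6.97, SE 1.95, adjusted p = 0.00684).

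Of 7 enzymes that use or make up for oxygen and heme, 2 were called higher and 1 lower in mutant RNA at 6 h, beside 17.8% of all features higher and 20.9% lower. In wild-type RNA 2 of these enzymes were called higher, beside 19.2%, and 0 lower. In footprints at 6 h, 3 of the 7 were called higher in the mutant, beside 26.2%, and 4 in the wild type, beside 28.5%, with 0 lower in each. Calls in either direction made up 50.7% of all features in mutant and 52.9% in wild-type footprints. The median of the 7 at 6 h in RNA was 0.43 in the mutant and 0.66 in the wild type. Of 6 genes of sterol uptake and heme transport, 1 was called higher in mutant RNA at 6 h, beside 17.8%, and 2 in wild-type RNA, beside 19.2%, with 0 lower in each; these shares are near the background. Their median in RNA was 0.25 in the mutant and 0.98 in the wild type. In footprints, where 5 of them were tested, 2 were called higher in the mutant, beside 26.2%, and 4 in the wild type, beside 28.5%. PDR11, a sterol importer used in cells without oxygen, had 7.88, 17.9 and 41.7 CPM of footprints at 6 h in the wild type, against 2.33, 1.74 and 1.56 CPM at 0 h (log2 3.71, SE 0.74, adjusted p = 0.000645).

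Of 7 regulators of the hypoxic response, 2 were called higher and 1 lower in mutant RNA at 6 h, beside 17.8% of all features higher and 20.9% lower. In wild-type RNA 2 regulators were called higher, beside 19.2%, and 0 lower. Their median in RNA was -0.54 in the mutant and -0.0036 in the wild type. In footprints 3 regulators were called higher and 1 lower in the mutant, beside 26.2% higher and 24.5% lower, and 3 higher and 0 lower in the wild type, beside 28.5% higher. HAP1, the heme-dependent activator, was at 319, 730 and 631 CPM at 6 h in wild-type RNA, against 68.7, 67.4 and 86.9 CPM at 0 h. Its RNA rose by a log2 fold change of 1.33 in the mutant (SE 0.39, adjusted p = 0.00889) and 2.91 in the wild type (SE 0.41, adjusted p = 8.85e-06), and its wild-type footprints by 3.94 (SE 0.60, adjusted p = 7.14e-05). MGA2, a membrane-anchored activator of the desaturase gene OLE1, rose in RNA by 2.30 in the mutant (SE 0.53, adjusted p = 0.00155) and by 2.89 in the wild type (SE 0.53, adjusted p = 0.000205). The lower one in mutant RNA was TUP1, named after its values were seen, which encodes the corepressor that acts with Rox1 (-2.11, SE 0.38, adjusted p = 0.000187). Its footprints in the mutant were 309, 220 and 254 CPM at 6 h, against 259, 279 and 289 CPM at 0 h, groups that overlapped, and were not called (-0.08, SE 0.18, adjusted p = 0.749). The change in translational efficiency of TUP1 in the mutant at 6 h was called higher (2.03, SE 0.42, adjusted p = 0.0108), as for 1.1% of all features, and was the one such call among the regulators. The lower one in mutant footprints was CYC8, named after its values were seen, the partner of Tup1 (-1.0, SE 0.21, adjusted p = 0.000941).

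None of the 8 genes was called between the strains. In RNA, mutant against wild type called 0 of 8 genes at 0 h, 3 h and 6 h, beside 0.0167%, 0.45% and 0.783% of all features. In footprints it called 0 of 8 at the same times, beside 0.0188%, 0.865% and 6.27%. The strain difference in the response called 0 of 8 in RNA at 3 h and 6 h, beside 0.0167% and 0.0333%, and 0 of 8 in footprints, beside 0.282% and 2.97%. At 6 h in RNA the log2 fold changes of mutant against wild type ran over -1.02 (DAN1, SE 0.93) to 1.03 (PET9, SE 0.51). A p that misses the threshold does not show that the strains were alike for these genes, since standard errors at 6 h were 0.38 to 1.02 in RNA and 0.44 to 1.59 in footprints.

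Translational efficiency, taken as the change in footprints minus the change in RNA, was called for 0 of 8 genes in all 4 comparisons over time. The background was 0% at 3 h and 1.74% at 6 h in the mutant, and 0.0378% at 3 h and 0.378% at 6 h in the wild type. The change for CYC7 at 6 h was 0.26 in the mutant (SE 0.98, adjusted p = 0.942) and 0.03 in the wild type (SE 0.93, adjusted p = 0.998). The change for AAC1 at 6 h was 1.02 in the mutant (SE 0.74, adjusted p = 0.559) and -1.58 in the wild type (SE 0.71, adjusted p = 0.423).

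Levels between genes were compared per kilobase of coding length. At 6 h in mutant RNA the mean levels, in CPM per kilobase, were ordered PET9 (568 ± 200), CYC7 (163 ± 67.2), ROX1 (68.5 ± 54.8), AAC1 (67.2 ± 15.0), ANB1 (38.1 ± 20.6), TIR1 (16.4 ± 8.74), DAN1 (14.3 ± 10.6) and AAC3 (11.1 ± 5.13; SD, n = 3 each). Of the neighbours in that order, PET9 and CYC7 did not overlap, and every other neighbouring pair did. In wild-type RNA at 6 h the order began with PET9 (288 ± 141), CYC7 (180 ± 110) and AAC1 (98.2 ± 28.1), ended with AAC3 (8.63 ± 8.09; SD, n = 3 each), and every neighbouring pair overlapped. At 0 h PET9 stood without overlap above the next gene, ROX1, in both strains, at 911 ± 396 CPM per kilobase in the mutant and 656 ± 79.4 in the wild type (SD, n = 3 each). In footprints AAC1 stood last or next to last in both strains at 0 h and 6 h, with 0.603 to 3.78 CPM per kilobase.

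Over the 18 RNA-seq libraries, which share groups and depth differences, log2 CPM of ANB1 ran opposite to that of PET9 (Pearson r = -0.798) and with that of TIR1 (r = 0.634), and TIR1 ran with DAN1 (r = 0.674). The same pairs gave -0.683, 0.707 and 0.689 over the 18 Ribo-seq libraries. Replicate 2 at 3 h holds the extreme values of ANB1 and PET9 in these correlations, which are descriptions. Among features with a mean of at least 20 CPM, the one most like each gene over the 18 RNA-seq libraries was PIB1 for ROX1 (r = 0.841), ACB1 for ANB1 (0.834), YCT1 for CYC7 (0.893), GYP5 for TIR1 (0.837), COS1 for DAN1 (0.838), YCL048W-A for AAC1 (0.935), MPD1 for AAC3 (0.835) and MIR1 for PET9 (0.941). MIR1 is the mitochondrial phosphate carrier, and its likeness to PET9 was 0.909 in footprints as well. The likeness of MPD1 to AAC3 was 0.06 there.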

How the data were processed

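RNA-seq and Ribo-seq were run on 36 libraries. The authors deposited whole-number read counts and a length for 7127 features per library, per the file headers, with nothing normalised. The submitters' processing notes name cutadapt 3.4, Bowtie 1.1.2, STAR 2.7.9a and build R64. The counting program, the use of strand and the treatment of reads with several matches are not given in the sources used here, so counts of near-identical copies are uncertain. Groups and replicate numbers were taken from the sample titles. The labels call the replicates biological.

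The deposited counts were fitted in edgeR 4.0.16 (R 4.3.3) and compared by its quasi-likelihood F test, with TMM factors within each assay and filterByExpr at a minimum count of 10. Each assay had a fit of its own over 18 libraries with 12 residual degrees of freedom, which held 6006 features for RNA-seq and 5315 for Ribo-seq. Translational efficiency was the interaction of assay and time over all 36 libraries (24 residual degrees of freedom, 5290 features). Benjamini-Hochberg adjustment ran over all features of a comparison. A standard error is the size of the log2 fold change over the root of its F. Paralogue shares were compared by a two-sided exact permutation test (SciPy 1.17.1) that cannot give a p below 0.1. The models were also run on simulated counts with a common spread and known changes in well-counted features only. That run does not test calls for genes with few counts or calls that depend on an outlying library.

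Genes named are the 8 genes, their aerobic paralogues with COX5B and HMG2, up to 3 largest rises and falls among listed genes past the threshold without overlap at 6 h in wild-type RNA (HAP1, MGA2 and TIR3) and footprints (TIR4, HAP1 and PDR11), where no listed gene other than paralogues fell, and the feature most like each of the 8. The genes and lists were chosen with earlier results of these data known. Same-numbered replicates deviated together, with every pair's correlation over 0.1, in 6 of 14 comparisons (RNA: mutant 6 h against 0 h, and mutant against wild type at 0 h and 6 h; footprints: 3 h against 0 h in each strain, and mutant against wild type at 3 h). RNA-seq and Ribo-seq libraries of one lysate did so in 15 of 18 pairs (mean r = 0.342). Tried besides were DESeq2 1.42.0, RLE factors, total counts for scaling, no filter, only the groups compared, blocks by replicate number or lysate, thinned counts, each library left out and, added after seeing the data, replicate 2 at 3 h of both strains left out.

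Reads carry no molecular identifiers, so intervals and floors cover counting error only. Sequences and positions are from the R64 genome in RefSeq's copy, the build that the processing notes name.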

Additional observations from a re-analysis of the deposited data

How the results depend on the processing

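The 14 called results of the 8 genes kept their sign under all 184 alternative values and lost the call in 37. Of the 162 results not called, 81 changed sign under at least 1 alternative, in 206 of 2556 alternative values, and a call was gained in 43. The number of the 8 genes called changed as follows. In wild-type RNA at 3 h it was 0 in place of 1 with only the groups compared, with the replicate block, with thinned counts and without replicate 2 at 3 h of both strains. In wild-type RNA at 6 h it was 1 in place of 4 with thinned counts, where CYC7, TIR1 and DAN1 no longer passed the filter. In mutant RNA at 3 h it was 1 in place of 0 with DESeq2 and with only the groups compared, and at 6 h it was 0 in place of 3 with thinned counts. In wild-type footprints at 3 h it was 3 in place of 0 with DESeq2, 1 with only the groups compared and 1 with the replicate block (ANB1, adjusted p = 0.0369). In wild-type footprints at 6 h it was 5 in place of 3 with DESeq2, with only the groups compared and with the replicate block, and 6 without replicate 2 at 3 h. In mutant footprints at 6 h it was 4 in place of 2 with DESeq2, 1 with only the groups compared and 5 without replicate 2 at 3 h. In comparisons whose replicate numbers did not pair the samples, the block ended the ANB1 call in wild-type RNA at 3 h (2.48, adjusted p = 0.0715). At 6 h it gave calls for ANB1 in wild-type RNA (2.10, adjusted p = 0.0468), for AAC3 (-1.19, adjusted p = 0.0170) and PET9 (-1.33, adjusted p = 0.0160) in wild-type footprints and for DAN1 in mutant footprints (5.07, adjusted p = 0.0412). The replicate block moved no other of these counts by over 1.5 times and changed no other call of the 8 genes. The cause of these differences was not tested. Scaling by total counts moved the median of all features at 6 h in RNA to 0.71 in the mutant and 0.62 in the wild type, against 0.01 and 0.03 with TMM.

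Leaving out 1 library at a time gave 0 to 1 called genes in wild-type RNA at 3 h, 1 to 5 at 6 h, 0 to 1 in wild-type footprints at 3 h, 1 to 4 at 6 h, 0 to 1 in mutant footprints at 3 h, 1 to 4 at 6 h and 0 to 1 for mutant against wild-type footprints at 6 h. Each paralogue share that changed sign when 1 library was left out had been within the spread: in percentage points, the AAC3 share with PET9 at 6 h minus 0 h ran over -0.569 to 1.24 in mutant RNA, -0.93 to 1.51 in wild-type RNA, -0.199 to 0.214 in mutant footprints and -0.0912 to 0.543 in wild-type footprints. For mutant minus wild type at 6 h it ran over -1.83 to 0.604 in RNA, the COX5B share over -11.6 to 2.61 in RNA and the HMG2 share over -2.28 to 15.0 in footprints. Counts per feature length changed the sign of none of the 24 share differences.

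Over all features, thinned counts called 1239 in place of 2323 in mutant RNA at 6 h and 1136 in place of 2154 in wild-type RNA at 6 h. At 3 h, DESeq2 called 428 in place of 196 in mutant footprints and 447 in place of 291 in wild-type footprints. Depth limits the RNA results in wild type at 6 h, where the 3 libraries held 113262, 215168 and 5089523 counts.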
